A study of Danio rerio with 6 samples.

Results

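The genes described here are the sex steroid receptors of the zebrafish (Danio rerio) and nothepsin, a liver aspartic protease that responds to estrogen. They were chosen by their names in the deposited tables: esr1, esr2a, esr2b, gper1, pgr, ar and nots, 7 of 31953 gene IDs. Livers of adult males were sequenced as bulk RNA after 3 weeks in flow-through tanks that held 1000 nM 17β-estradiol (E2), 100 nM nonylphenol (NP) or the solvent ethanol as control. E2 is the main natural estrogen and NP an alkylphenol formed when certain surfactants break down. Both compounds were dissolved in ethanol, so the solvent is common to all 3 groups. The labels give males only, with no strain and no age. Each group had 2 libraries and 1 tank of 80 L with 40 fish, so tank and treatment cannot be told apart. From the labels a library could be 1 fish or a pool, and p-values therefore measure no more than how far these libraries spread, which may be technical.

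Estrogen, androgen and progesterone receptors of the nucleus are transcription factors that chaperones hold ready until a steroid binds. The receptor with its ligand then pairs up, binds response elements in DNA and draws in coactivators, while other receptors for the same hormones sit in membranes. In the liver of egg-laying fish, estrogen acts largely through estrogen receptor alpha to switch on yolk proteins, and the gene of this receptor is itself a target of estrogen in several fish.

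The deposited tables hold for each gene its normalised read count averaged across the 4 libraries compared, its log2 fold change against control with a standard error, and its p-values. Reads per library were recovered from those means, because each whole read adds to a gene's mean a step whose size depends only on its library. The libraries of a group are called deeper and shallower by their size factors, as the tables do not tie them to a sample. Over the recovered genes the E2 libraries held 259524 and 21876 reads, the NP libraries 350028 and 381769 (named by size factor, not by this sum), and the control libraries 509423 and 319031. Taking genes whose mean reached 50 normalised reads, the libraries within a group differed by a median fold of 4.28 in E2 and 1.34 in NP, and 1.97 in control in the E2 table. All 12 liver cell markers were found. In the authors' deposited tables tfa, the plasma iron carrier transferrin, had a mean of 12684 normalised reads in E2 and its controls and 61346 in NP and its controls. Each comparison was scaled on its own, so these 2 means do not compare directly. A gene passed where its deposited adjusted p was under 0.05, and genes are said to rise or fall where they passed.

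In E2 livers, nothepsin and estrogen receptor alpha rose, and no other member passed. In NP livers, nothepsin rose and was the only member to pass. The androgen receptor, both beta type estrogen receptors and the membrane estrogen receptor gper1 did not pass in either, and most of their libraries held few or no reads; the progesterone receptor had no read at all. An adjusted p was given for 3 of the 7 members in the E2 table (nots, esr1 and esr2b), and 2 of these 3 rose, where 2.1% of all 3241 tested genes rose. In the NP table it was given for nots, esr2b and esr2a, and 1 of these 3 rose, where 1.26% of all 6799 tested genes rose. Genes with low means have no adjusted p in the tables: the lowest mean tested was 12.6 normalised reads for E2 and 6.64 for NP. In control, nots had a mean of 1.95 and esr1 of 0.855 in the E2 table, and nots 3.37 in the NP table. These members were thus tested only because their treated libraries were high, so the shares above give no support for their rise. Both comparisons use the same control libraries, so the low control reads of a gene enter both of its fold changes.

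**Figure D1:**
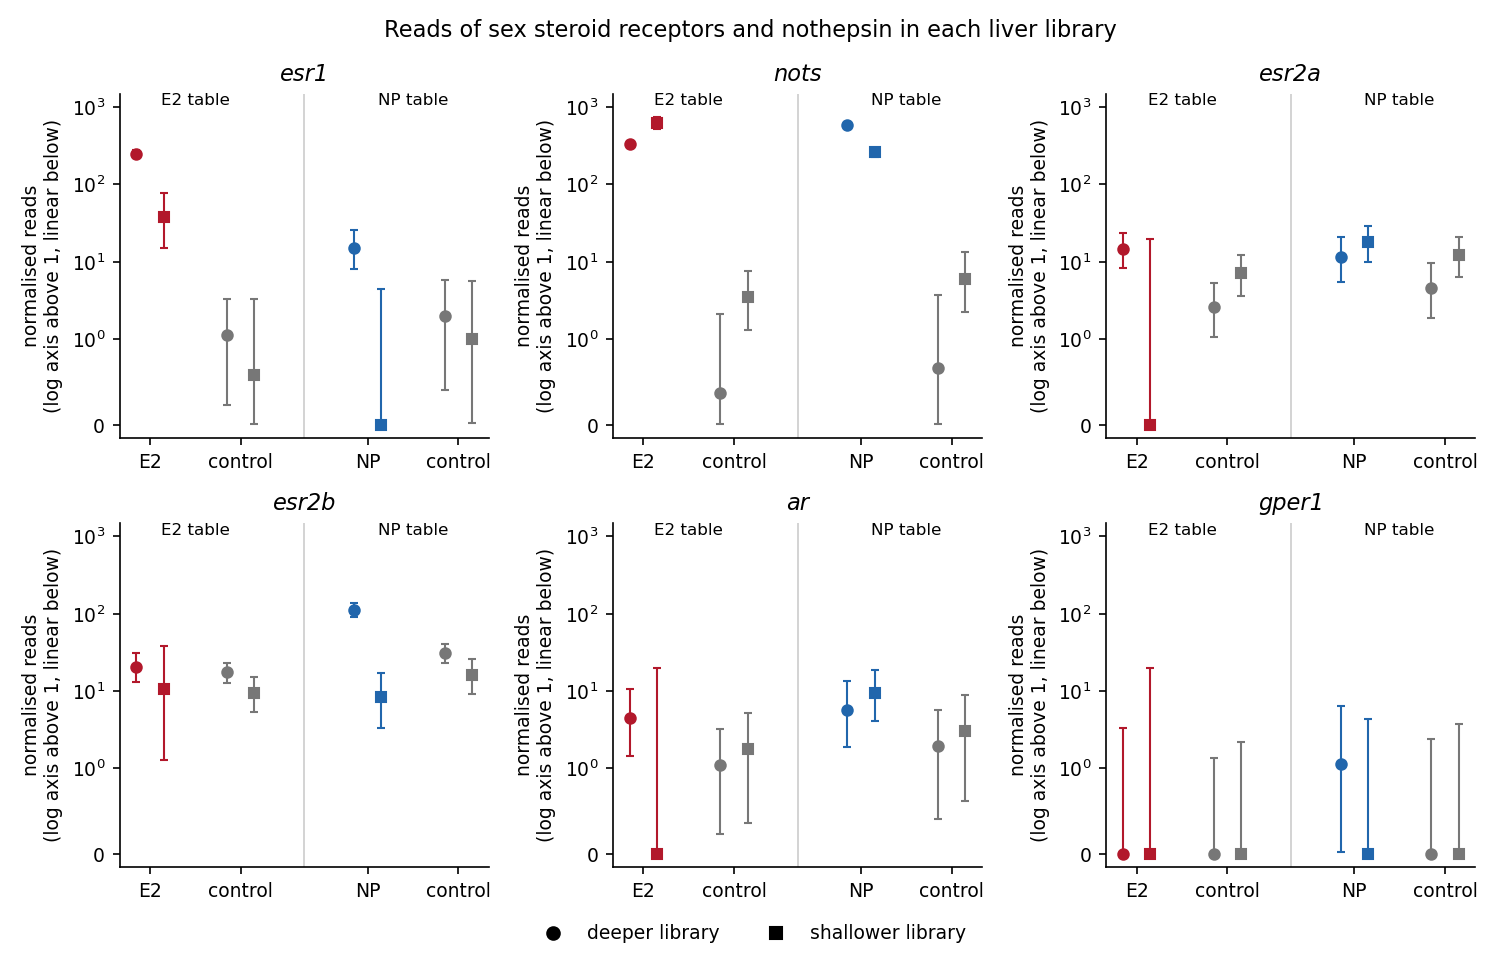
Normalised reads of 6 members in each library; the axis is logarithmic above 1 and linear below. Each panel is a gene, with E2 and its controls at the left, scaled as in the E2 table, and NP with its controls at the right, scaled as in the NP table; circles are deeper and squares shallower libraries, and bars are 95% Poisson intervals that cover counting error only. The E2 and NP points of nots stand far above all controls, those of esr1 only in E2, and the points of the other genes lie low or overlap; pgr is left out, as it had 0 reads in all 6 libraries.

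Nothepsin (nots, ENSDARG00000099824) is an aspartic protease of the pepsin family, and the files give human CTSE as its counterpart. In the E2 table it had 333 and 625 normalised reads in the deeper and the shallower E2 library (369 and 117 reads), against 0.374 and 3.53 in the deeper and shallower control libraries (1 and 6 reads). Both E2 libraries lay above both controls, and the lower E2 value was 94.4 times the higher control value. The E2 values differed 1.88-fold from each other, less than the median gene of that group. The mean was 479 ± 206 in E2 and 1.95 ± 2.23 in control (SD, n = 2 each). In the authors' deposited table the log2 fold change was 7.18 ± 1.19 (SE), with an adjusted p of 6.06e-07. A limma-voom fit on the recovered reads, with TMM scaling over 9404 genes, gave nots 8.44 ± 1.02 (SE) with an adjusted p of 0.211, which did not pass. Without the filter on low reads the same fit gave nots 8.08 ± 1.11 (SE) with an adjusted p of 8.95e-07. That lower p came with a smaller fold change and a larger SE, and the reason was not tested. The filtered fit called 1 gene in all, while 1107 had an unadjusted p under 0.05. In bulk tissue, more or fewer cells of a type and more or less RNA per cell cannot be told apart.

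NP livers showed the same gene high. In the NP table nots had 591 and 262 normalised reads in the deeper and shallower NP libraries (512 and 220 reads), against 0.659 and 6.08 in the deeper and shallower control libraries. The NP libraries again lay wholly above the controls, the lower NP value being 43.0 times the higher control value. The NP values differed 2.26-fold from each other, more than the 1.34-fold of the median gene of that group. The mean was 426 ± 233 in NP and 3.37 ± 3.83 in control (SD, n = 2 each), and the authors' deposited table gives a log2 fold change of 6.35 ± 0.85 (SE) with an adjusted p of 2.41e-11. The limma-voom fit gave 7.77 ± 1.03 (SE) with an adjusted p of 0.138 (0.00843 without the filter), and with the filter its calls were 0 of 10097 genes, while 760 had an unadjusted p under 0.05. For both comparisons the deposited log2 fold change of nots is smaller than the log2 ratio of the recovered means, which was 7.94 for E2 and 6.98 for NP. As plain ratios these are 246 for E2 and 127 for NP, both resting on 7 control reads in all.

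Among the genes that rose, nots stood above most others but not at the top in either table. By the log2 fold change in the authors' deposited table it was 12th of the 68 that rose with E2, and 5 of the 11 genes above it were vitellogenins. In the NP table it was 26th of the 86 that rose, and 2 of the 25 genes above it were vitellogenins and 8 were markers of the exocrine pancreas. Vitellogenins are the egg yolk precursors that estrogen brings on in fish liver. The pancreas markers, 10 genes with recovered reads, summed to 12446 and 43614 normalised reads in the deeper and shallower NP libraries and to 54.7 and 234 in the deeper and shallower control libraries. In E2 the pancreas markers summed to 121 and 1540 normalised reads in the deeper and shallower libraries, against 31.0 and 136 in the controls. The NP library with fewer pancreas reads was the higher one for nots, whereas in E2 the library with more was the higher one, and the part of pancreatic RNA in the rise of nots was not tested.

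Marker sums of other cells differed between the groups as well. Macrophage markers, 7 genes with recovered reads, summed to 114 and 69.5 normalised reads in the deeper and the shallower library of E2, against 404 and 398 in the deeper and shallower control libraries. In NP they summed to 107 and 161, against 713 and 685 in the same controls on the NP scale. Red cell markers, 3 genes, summed to 253 and 734 normalised reads in NP, against 79.1 and 52.7 in the controls, and to 6.33 and 48.1 in E2, against 44.9 and 30.6 in the controls. Of the 12 liver cell markers, all tested, 3 fell in E2 (fga, fgb and serpina1), where 119 of all 3241 tested genes fell. The authors' deposited table gives a median log2 fold change of -2.48 over the 12, with a range of -3.68 to -0.43. In NP 1 of the 12 fell (hamp, the iron hormone hepcidin, at -6.08), where 114 of all 6799 tested genes fell. For NP the authors' deposited table gives a median of 0.07 over the 12, with the highest at 2.03. Of 6 ovary markers found, at most 2 had a read in any library. The part of these differences in the rise of nots and esr1 was not tested.

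Estrogen receptor alpha (esr1, ENSDARG00000004111) rose in E2 livers. It had 248 and 37.4 normalised reads in the deeper and the shallower E2 library (275 and 7 reads), against 1.12 and 0.588 in the deeper and shallower control libraries (3 and 1 reads). The E2 libraries did not overlap the controls, but they differed 6.64-fold from each other, more than the median gene of that group, and the shallower one rests on 7 reads. The mean was 143 ± 149 in E2 and 0.855 ± 0.377 in control (SD, n = 2 each), an SD in E2 as large as its mean. The authors' deposited table gives a log2 fold change of 6.45 ± 1.30 (SE) with an adjusted p of 1.13e-04, the 21st of the 68 genes that rose by size. All 8 vitellogenins stood above it. The limma-voom fit gave 6.67 ± 1.05 (SE) with an adjusted p of 0.293, which did not pass, and of 5.38e-04 without the filter. Without the deeper E2 library the log2 ratio of recovered means, with a pseudocount of 1, was 4.37, and with all 4 libraries it was 6.28.

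In NP livers esr1 had 15.0 normalised reads in the deeper library (13 reads) and 0 in the shallower one, against 1.98 and 1.01 in the deeper and shallower control libraries. One NP library stood above both controls and the other had no read. A count of 0 in that library allows up to 3.57 normalised reads, taken as 3 reads and covering counting error only. The authors' deposited table gives a log2 fold change of 1.52 ± 1.36 (SE), with a 95% interval of -1.14 to 4.18 and no adjusted p. At that SE a log2 fold change of 4.33 would have been needed to reach the largest p that passed in the NP table. The doses of the compounds differ, and no test between them was made. The vitellogenins, targets of this receptor, rose in both. The authors' deposited tables give a median log2 fold change of 8.40 over 8 tested in E2 and of 5.42 over 7 tested in NP. All of these passed, where 2.1% of all tested genes rose in E2 and 1.26% in NP. The gene si:dkey-4c23.3 had a mean of 0 in the NP table. In control, vtg6 had 3.37 and 2.35 normalised reads in the E2 table, where the lowest mean tested was 12.6. It was thus tested only because its treated libraries were high, and for such genes these shares give no support for a rise. In the authors' deposited tables the family's top log2 fold change was 9.87 ± 1.1 (SE) for vtg6 in E2 and 7.69 ± 0.81 for vtg2 in NP.

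**Figure D2:**
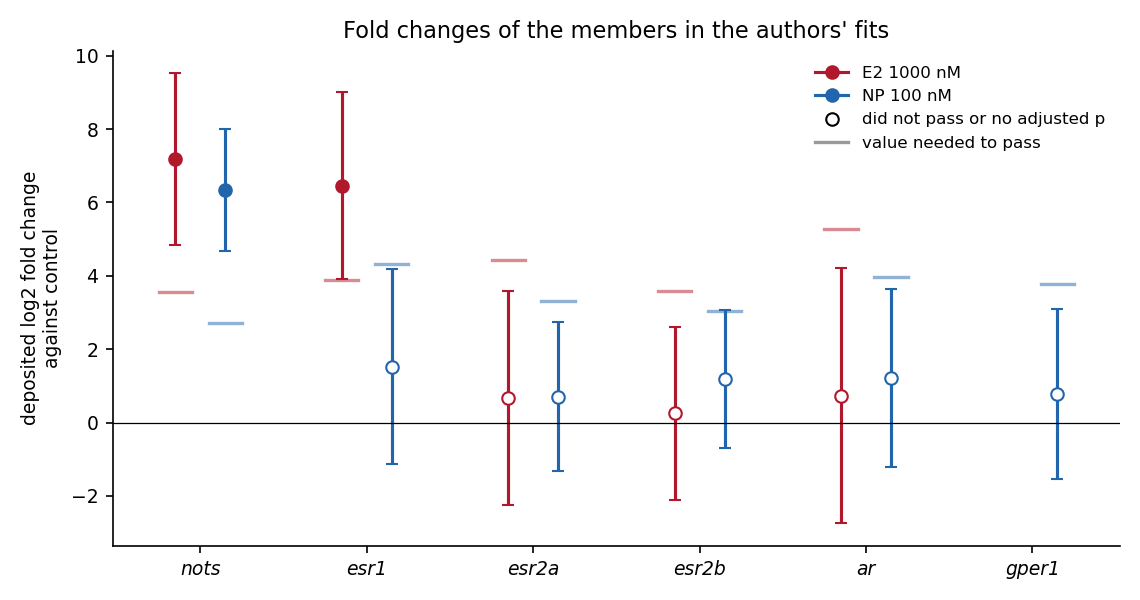
Deposited log2 fold changes of the members against control with 95% intervals, for E2 (1000 nM) and NP (100 nM). Filled points passed at an adjusted p under 0.05, open points did not or have no adjusted p, and pale marks show the size a gene would have needed at its SE; nots passed in both and esr1 in E2.

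The beta type estrogen receptors are a pair in teleosts, esr2a (ENSDARG00000016454) and esr2b (ENSDARG00000034181), and the files give human ESR2 as the counterpart of both. For esr2b, the E2 libraries had 20.8 and 10.7 normalised reads in deeper and shallower order (23 and 2 reads), against 17.6 and 9.41 in the deeper and shallower control libraries (47 and 16 reads). The 2 groups interleaved, and in each the deeper library was the higher. The authors' deposited table gives 0.26 ± 1.2 (SE) on the log2 scale with an adjusted p of 0.947 and an interval of -2.10 to 2.61, which leaves room for a change of several fold either way.

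In NP livers esr2b had 113 and 8.32 normalised reads in the deeper and shallower libraries (98 and 7 reads), against 31.0 and 16.2 in the deeper and shallower control libraries. The controls thus lay between the NP libraries, which differed 13.6-fold where the median gene of that group differed 1.34-fold. The authors' deposited table gives a log2 fold change of 1.19 ± 0.96 (SE) with an adjusted p of 0.963. Without the deeper NP library the log2 ratio of recovered means, with a pseudocount of 1, was -1.40, and without the shallower one it was 2.21, so a single library sets its direction.

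esr2a had 14.5 and 0 normalised reads in the deeper and the shallower E2 library (16 and 0 reads), against 2.62 and 7.06 in the deeper and shallower control libraries (7 and 12 reads). The 0 in the shallower E2 library allows up to 16.0 normalised reads, more than any other library of that table held, so a fall or a modest rise was not detectable in it. In NP it had 11.5 and 17.8 normalised reads in the deeper and shallower libraries, against 4.62 and 12.2 in the deeper and shallower control libraries, and the groups overlapped. The authors' deposited tables give a log2 fold change of 0.68 ± 1.49 (SE) for E2 with no adjusted p, and of 0.70 ± 1.04 for NP with an adjusted p of 0.999.

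The membrane estrogen receptor gper1 (ENSDARG00000074661), a receptor coupled to G proteins, had 1 read in the deeper NP library and 0 in the other 5 libraries. The nuclear progesterone receptor pgr (ENSDARG00000035966) had 0 reads in all 6. In the deeper and shallower E2 libraries a count of 0 allows up to 2.71 and 16.0 normalised reads, against 1.12 and 1.77 in the deeper and shallower control libraries of the same table. In the deeper and shallower NP libraries the same limit is 3.46 and 3.57. The authors' deposited table gives gper1 a log2 fold change of 0.78 ± 1.18 (SE) for NP, which rests on that 1 read.

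The androgen receptor ar (ENSDARG00000067976) binds testosterone and 11-ketotestosterone, the main androgens of male fish. In the GRCz12tu assembly another gene overlaps ar, and whether counting used strand is not given in the sources used here, so reads of that pair may be mixed. It had 4.52 and 0 normalised reads in the deeper and the shallower E2 library (5 and 0 reads), against 1.12 and 1.77 in the deeper and shallower control libraries (3 reads each). These groups overlap. In NP it had 5.77 and 9.51 normalised reads in the deeper and shallower libraries (5 and 8 reads), against 1.98 and 3.04 in the deeper and shallower control libraries. Here both NP libraries stood above both controls, but on 13 reads against 6, and the authors' deposited table gives a log2 fold change of 1.22 ± 1.24 (SE) with an interval of -1.21 to 3.64 and no adjusted p. The shallower NP library also held RNA of testis: all 9 testis markers had reads there, 119 normalised reads in sum, against 1 of 9 markers and 1.15 normalised reads in the deeper NP library and at most 2 of 9 markers in any control. That library was the higher NP library for ar and esr2a and the lower one for esr1, esr2b and nots, and the part of testis RNA in these values was not tested.

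**Figure D3:**
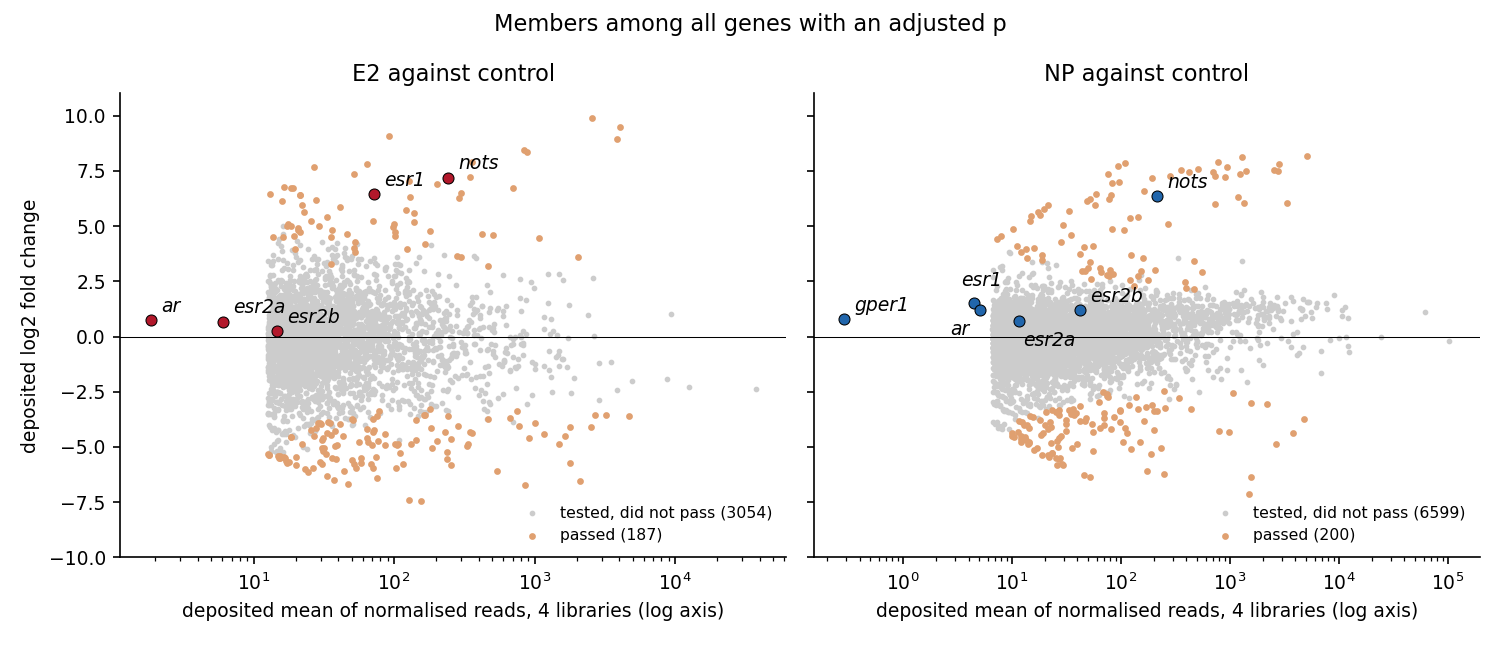
Deposited log2 fold change against the deposited mean of normalised reads (log axis) for every gene with an adjusted p, E2 at the left and NP at the right, with the members marked whether or not they have one. Orange points are the 187 genes that passed for E2 and the 200 for NP; nots lies among the risen genes in both panels, esr1 only in the E2 panel, and the members that did not pass lie at log2 fold changes between 0.26 and 1.52.

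Hormone receptors work with partners, and gene lists for these were set down by symbol. Over all tested genes 5.77% passed in either direction for E2 and 2.94% for NP, and the median log2 fold change was -0.22 for E2 and -0.03 for NP. Of the coregulators and pioneer factors, none of 11 tested passed in E2 and none of 17 in NP, with medians of -0.43 and -0.02 in the authors' deposited tables. The gene nearest to the threshold in E2 was prmt1, an arginine methyltransferase that modifies histones at receptor target genes. It had 678 and 198 normalised reads in the deeper and the shallower library of E2, against 78.5 and 32.9 in the deeper and shallower control libraries. The authors' deposited table gives prmt1 a log2 fold change of 2.74 ± 1.1 (SE) for E2 with an adjusted p of 0.115, so it did not pass. For NP its deposited value was -0.48 ± 0.76 with an adjusted p of 0.999. In NP the smallest p values of the list belonged to ncoa4, a coactivator that also carries ferritin to lysosomes, and to foxa1, a pioneer factor that opens chromatin for receptors. The authors' deposited table gives them log2 fold changes of 1.74 ± 0.86 and 1.42 ± 0.86 (SE), with adjusted p of 0.519 and 0.742.

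No chaperone of the steroid receptors passed, of 5 tested in E2 and 8 in NP, and the medians were -0.85 and 0.32 in the authors' deposited tables. The constitutive HSP90 gene hsp90ab1 had a log2 fold change of -1.36 ± 1.04 (SE) for E2 and an adjusted p of 0.539 in the authors' deposited table, and hsp90aa1.2 had -2.51 ± 1.99 with no adjusted p. For NP the authors' deposited table gives 1.01 ± 0.74 (SE) for fkbp5, a cochaperone of glucocorticoid receptors, and -2.18 ± 1.1 for ptges3b, a gene of the p23 cochaperone, with adjusted p of 0.909 and 0.537.

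Among the membrane progestin receptors and their relatives, both genes tested in each comparison were pgrmc1 and pgrmc2, which code for heme binding membrane proteins, and neither passed. pgrmc2 had 576 and 16.0 normalised reads in the deeper and the shallower library of E2, against 74.4 and 161 in the deeper and shallower control libraries, so the E2 libraries lay on both sides of the controls. The authors' deposited table gives pgrmc1 -1.15 ± 1.11 (SE) for E2 and 0.86 ± 0.71 for NP on the log2 scale, with adjusted p of 0.644 and 0.963, and pgrmc2 1.18 ± 1.32 for E2 with 0.707. The membrane progestin receptor paqr7a had a mean of 0.831 normalised reads in the NP table and no adjusted p.

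The glucocorticoid receptor nr3c1 was the only corticosteroid or estrogen-related receptor with an adjusted p, which was 0.832 in E2, with a log2 fold change of -0.74 ± 1.32 (SE) in the authors' deposited table. The estrogen-related receptor esrra and the mineralocorticoid receptor nr3c2 had means under 5 normalised reads in both tables. Of the genes that make, reduce or carry sex steroids, none of 3 tested passed in E2 and none of 5 in NP. Their median log2 fold changes were -1.54 in E2 and -0.20 in NP, where all tested genes had -0.22 and -0.03. hsd3b7, an enzyme of bile acid synthesis, had 1.81 and 0 normalised reads in the deeper and the shallower library of E2, against 5.98 and 61.8 in the deeper and shallower control libraries, with a log2 fold change of -3.82 ± 1.53 (SE) and an adjusted p of 0.115 in the authors' deposited table. The control libraries of hsd3b7 lay far apart. hsd17b3, which makes testosterone in the testis, and the steroid enzymes cyp17a1 and cyp19a1b had too few reads for an adjusted p in the comparisons where they had the smallest p values. In the pepsin family list nots was the only gene to pass, 1 of 2 tested in E2 and 1 of 4 in NP. Of all tested genes 2.1% rose in E2 and 1.26% in NP. As nots was tested only because its treated libraries were high, these shares give no support for its rise.

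**Figure D4:**
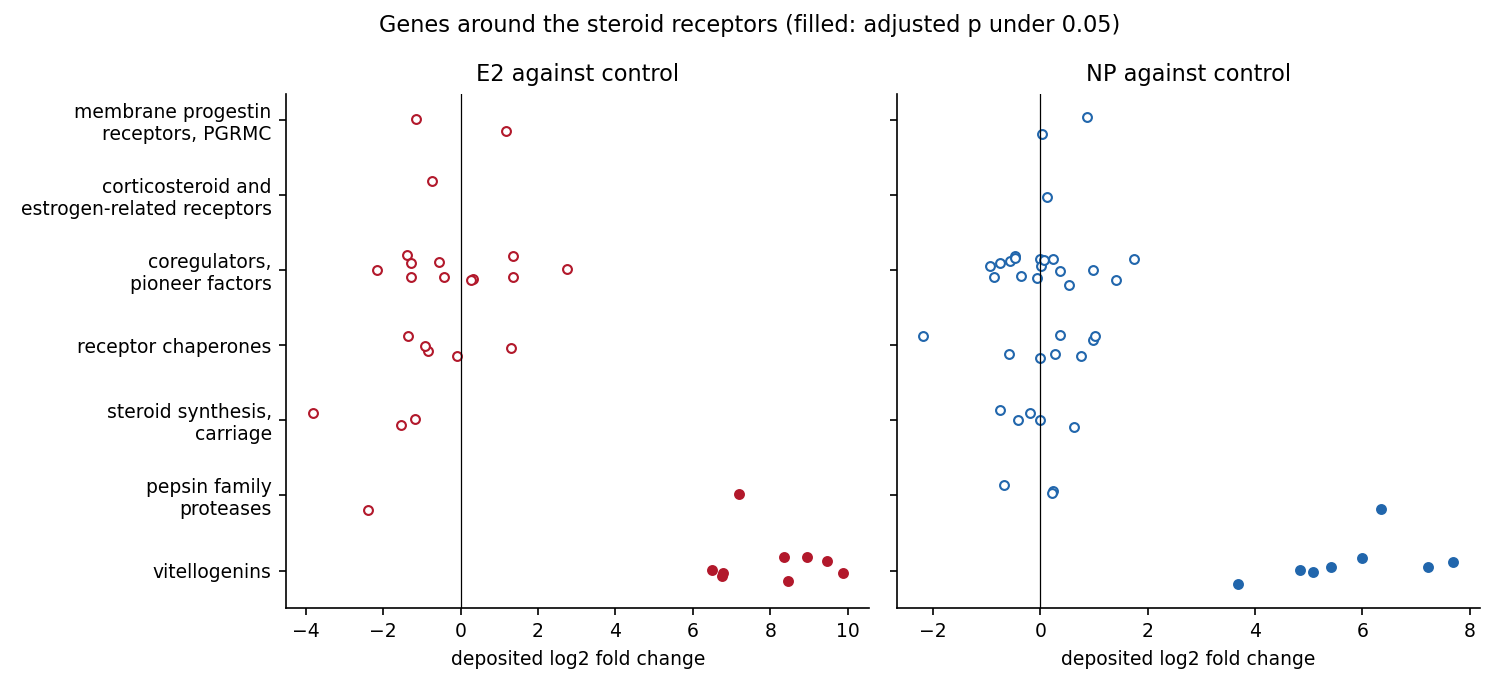
Deposited log2 fold changes of the tested genes of each list, one point per gene, for E2 and NP against control; filled points passed. Every tested vitellogenin passed and rose in both comparisons, where 2.1% of all tested genes rose in E2 and 1.26% in NP. Some, such as vtg6 in E2, were tested only because their treated libraries were high. For such genes these shares give no support for a rise. The only other gene of these lists to pass was nots, and the rest of the points lie on both sides of 0. In E2 the 3 tested genes of steroid synthesis and carriage all lie below 0, and none passed. All 12 liver cell markers, not drawn here, also lie below 0 in E2.

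Genes most like esr1 and nots were sought by the distance between their pairs of log2 fold changes in E2 and NP. The search ran over 3240 genes with a mean of at least 10 in both tables, leaving out genes without a symbol or with a clone name. In the NP table esr1 itself had a mean of 4.50, under that floor, and its reads in NP livers all lay in the deeper library. Nearest to esr1 was rtn1a, a reticulon of the endoplasmic reticulum, at a distance of 1.39. It had 1353 and 32 reads in the E2 libraries and 20 and 46 in the NP libraries, against 8 and 4 in the controls. Next came mastl, a mitotic kinase, at 2.0, whose 438 E2 reads were all in the deeper library, and vtg5 at 2.19. Nearest to nots were vtg1 at 1.12, vtg3 at 1.57 and vtg2 at 1.78. Of these, vtg3 had 2452 and 219 reads in E2 and 296 and 187 in NP, against 2 and 8 in control. All reads given for these nearest genes are raw and not scaled for depth. Such nearness describes 2 fold changes that share their controls, and no more.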

How the data were processed

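Total liver RNA was made into TruSeq libraries, per the labels' protocols, in 3 groups of 2 libraries. The submitters' processing notes name GRCz10 as the build and DESeq2, HTSeq and TopHat2 as tools; versions and settings are not given in the sources used here. The authors deposited the results of their own fits in 2 tables, one for E2 and one for NP, each set against control and each with 32760 rows for 31953 gene IDs, and repeated rows of an ID were counted once. Per the file headers they hold a signal (the mean normalised read count of 4 libraries), a log2 fold change with its standard error, a score (fold change over standard error), and p-values, plain and adjusted. These deposited values are the main result. The deposited log2 fold changes were smaller than the ratio of recovered means in 76 of 76 called genes for E2 and 107 of 107 for NP with recovered reads in both groups.

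Whole reads per library were recovered from the deposited means in an addition made after seeing the data. Steps between low means gave the size factors, and each gene was solved for 6 counts from both tables at once. Solutions that ran strongly against the direction of a deposited fold change were discarded. A unique solution is thus unique given these directions, and the direction of a recovered ratio is no independent check. Of 18593 genes with reads, 18382 (98.9%) had a unique solution, while 210 genes with high means were not tried. Solved genes account for 42.6% (E2 table) and 36.2% (NP table) of all summed means. Solving the tables separately gave equal control counts for 10962 of 10962 genes. Only genes with low means that the joint solution had already solved were compared, so this match was fixed in advance. It is no check of the recovery, and nots and esr1 were not among these genes. Reads were fitted with limma 3.58.1 in R 4.3.3 (voom, TMM, genes with at least 10 reads over the libraries of a fit), and the scripts were tested on simulated data. Intervals and limits from reads cover counting error only. Solving used Python 3.11.15.

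Named genes are the 7 members; of each list, up to 3 past the threshold ranked by adjusted p, or, where none passed, the 2 of smallest p; and the 3 genes nearest to each called member. A gene that this rule names is not reported here. Members, lists and tests were chosen with earlier results of these data known. Promoters, proteins and coordinates were not analysed here. Levels were not compared between genes, since lengths were not used here.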

Additional observations from a re-analysis of the deposited data

How the results depend on the processing

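The authors' deposited adjusted p called 2 members in E2 and 1 in NP. Adjusting over every gene with a deposited p, or asking for a log2 fold change over 1 as well, gave the same counts, as did limma-voom with no filter on low counts. Limma-voom with the filter called 0 members in E2 and 0 in NP, with TMM, with size factors, and with 6 libraries in 1 fit (chosen after seeing the data). Leaving out each library in turn in that fit gave 0 to 2 members called in E2 and 0 to 1 in NP: without the deeper or the shallower E2 library 0, and without either control library 2; in NP the only call came without the deeper control library. In those fits the lone library of a group is assumed to vary like the other group. Over the limma-voom settings the adjusted p of nots in E2 ran from 8.95e-07 to 0.773, that of esr1 in E2 from 9.94e-05 to 0.831, and that of nots in NP from 0.00101 to 0.269; the cause of the differences was not tested. Of 66 settings for the members' fold changes, 58 moved by less than the deposited SE of the gene, 8 moved by more and 0 turned round a called value. A change of sign was not counted for values that did not pass. The recovery of reads used the deposited directions, so with every library kept a turn of a called value was largely excluded in advance. Without the deeper E2 library the log2 ratio in E2 was -2.55 for esr2a (deposited as 0.68) and -1.29 for ar (deposited as 0.73). Both genes had 0 reads in the E2 library that was left. For esr2b in E2, deposited as 0.26, it was -0.31 without the deeper E2 library. The leave-one-out log2 ratio ran from 6.73 to 8.45 for nots in E2, from 5.91 to 8.01 for nots in NP and from 4.37 to 7.07 for esr1 in E2; for esr1 in NP it ran from -1.32 to 2.68. No paired analysis was possible because the labels give no replicate numbers and the tables hold no columns per library. The files hold no counts, and the recovered reads were fitted with limma-voom only. Other tests for counts (edgeR, DESeq2) were not run on them. The shallower E2 library, with 21876 recovered reads, limits what can be seen of the receptors with few reads.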

Other observations

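The genes beside the receptors were looked up in the RefSeq order of the GRCz12tu assembly, and those named here were chosen after their values were seen. Each of the 3 nuclear estrogen receptor genes lies next to a gene for a nesprin, a protein of the nuclear envelope. syne1a, beside esr1, had 59 and 4 reads in E2, deeper library given before shallower, and 3 and 2 in the NP libraries, against 5 and 3 in the controls. The authors' deposited table gives it a log2 fold change of 3.95 ± 1.22 (SE) for E2 with an adjusted p of 0.0274. It passed, where 2.1% of all tested genes rose in E2. The lowest mean tested there was 12.6 normalised reads, so syne1a was tested only because its E2 libraries were high. syne2a, beside esr2a, had 59 and 1 reads in E2, against 6 and 12 in the controls, and 2.42 ± 1.32 (SE) with an adjusted p of 0.302 in the authors' deposited table. syne2b, beside esr2b, had 5 and 7 reads in E2, against 53 and 48 in the controls, and -0.30 ± 1.25 (SE) with an adjusted p of 0.942 in the authors' deposited table. The reads of these neighbours are raw and not scaled for depth. Size factors in the E2 table were 0.187 in the shallower E2 library and 2.67 in the deeper control, so raw reads do not compare directly between libraries.

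A gene that overlaps ar in that assembly, si:dkey-204l11.1, had 156 and 0 reads in E2, deeper library given before shallower, and 41 and 40 in the NP libraries, against 0 and 7 in the controls. Again these reads are raw and not scaled for depth. The authors' deposited tables give it 4.06 ± 1.63 (SE) for E2 with an adjusted p of 0.115 and 3.23 ± 1.02 for NP with an adjusted p of 0.0530, so neither passed. Whether counting used strand is not given in the sources used here.

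Intestine markers, 5 genes, summed to 2.71 and 5.35 normalised reads in the deeper and shallower libraries of E2, against 8.98 and 257 in the deeper and shallower control libraries. In NP they summed to 5.77 and 7.14, against 15.8 and 442 in the same controls on the NP scale. Only the shallower control library had reads for all 5 genes, and it held 6 of the 7 control reads of nots. The part of intestine RNA in the control values was not tested.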
